A study of Homo sapiens with 12 samples.

Results

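The genes described here lie on the short arm of human chromosome 11 (11p), from BET1L near its tip to RCN1, and were picked because their mRNA levels were low together in the R1 samples of a melanoma study, both against the control samples and against the R2 samples. The rule names 57 genes. Of these, 56 were among the 12931 listed genes and 1, DCHS1, was not analysed here. By RefSeq positions on GRCh38.p14 the stretch is chr11:202924-32105722, or 31.9 Mb. The values that chose the genes are the R1 minus control and the R1 minus R2 differences. Those differences are given here as a description with no test. Tests are given for R2 minus control, which the rule did not name but which equals the first difference minus the second. Genes also low in R2 were less likely to be picked, so the balance of rises and falls in R2 depends in part on the choice. The p-values of single rises in R2 depend on it too.

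WM1366 is an established human melanoma cell line with an activating NRAS mutation. The series' design text speaks of WM1366 tumours that were grown in mice as xenografts and were progressing, on either a control diet or a diet with a MEK inhibitor and a CDK4/6 inhibitor. MEK is a kinase of the MAPK pathway, and CDK4 and CDK6 drive entry into S phase. RNA was sequenced from 12 samples in 3 groups of 4. The control samples are labelled with the control diet, and the samples labelled R1 and R2 with the diet that combines both inhibitors. The sample labels also describe cells in culture medium, and they name palbociclib (a CDK4/6 inhibitor) at 0.1 uM and PD0325901 (a MEK inhibitor) at 1 nM for every sample, the control samples included. How R1 differs from R2 is not given, nor how many tumours or cultures each group came from, nor whether the replicates are separate tumours, so p-values measure only the spread between these samples. DNA of these tumours was not analysed here.

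Genes that neighbour each other on a chromosome arm mostly have no common function. Each is transcribed from its own promoter, although some pairs are transcribed in opposite directions from start sites that lie close together. The tip of 11p is rich in widely expressed genes, and the stretch holds genes for membrane traffic, transcription, nuclear transport, cell adhesion and calcium handling.

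Each library held between 20003891 and 39009384 reads in listed genes. No library held fewer than 41 reads for any of the 56 genes analysed. All values below are the deposited read counts, which the authors scaled for library size, and all differences are on the log2(value + 0.5) scale, with group means given as mean ± SD over 4 libraries. Of 8 melanocyte genes only MITF and PMEL were listed, and they moved in opposite directions. MITF averaged 50.3, 23.5 and 30.4 in control, R1 and R2 (R1 minus control -1.11, adjusted p = 0.000217 by limma), and PMEL 5.32, 27.1 and 8.81 (2.24, adjusted p = 1.48e-06). The defining pigment cell genes MLANA and TYR were not among the listed genes. Of 8 endothelial genes 4 were listed, with a sum of 133 to 172 in control, 375 to 499 in R1 and 126 to 157 in R2, most of it from TIE1 at 139, 394 and 135. PECAM1 averaged 2.26, 2.55 and 0.697 and was not called in R1 minus control (0.15, adjusted p = 0.744). VWF averaged 1.76, 4.49 and 0.937, and EGFL7 averaged 3.61 in control, 16.2 in R1 and 0.00727 in R2. PECAM1, VWF and EGFL7 thus had their lowest means in R2, which the sum, mostly TIE1, does not show. The 2 listed leukocyte genes of 8 (CSF1R, LAPTM5) summed to 1.72 to 4.17 in control, 4.13 to 15.5 in R1 and 0.378 to 0.811 in R2. Of 8 fibroblast genes 5 were listed, with a sum of 626 to 740.2 in control, 513 to 668 in R1 and 741 to 826 in R2, most of it from THY1 (420.2, 491 and 553) and COL1A1 (271, 105 and 216). PDGFRB (4.03, 5.05 and 0.331) and LUM (6.66, 5.96 and 2.02) were lowest in R2, and RGS5 averaged 3.66, 2.55 and 6.13. Transcripts of the mitochondrial genome took 8.67% ± 2.20 of the reads in control, 2.54% ± 0.517 in R1 and 7.83% ± 2.59 in R2. The part of these differences in the levels of the 11p genes was not tested. In bulk RNA, fewer cells of a type and less RNA per cell cannot be told apart. The host of the xenografts is the mouse, and how mouse reads were treated is not given. These values therefore do not show that human endothelial cells, leukocytes or fibroblasts were present.

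In R1, 53 of the 56 listed genes lay below control and 54 lay below R2 by group mean log2 value, where 49% and 49.9% of all listed genes did. The median difference was -0.66 against control and -0.77 against R2, beside 0.01 and 0.00 over all listed genes. By ratio of group means, the median gene was at 0.635 of its control level in R1 and at 0.597 of its R2 level. Of the 56 genes, 5 were under 0.5 of the control mean, 36 between 0.5 and 0.75, 12 between 0.75 and 1, and 3 above 1. The ratios ran from 0.387 for ZBED5 to 1.48 for LIN7C. Because the genes were picked on these contrasts, the number past an adjusted p of 0.05 in them describes the choice and is no test. It was 43 on the low side and 1 on the high side in R1 minus control (21.4% and 22.4% of all listed genes, 43.8% in either direction) and 44 on the low side in R1 minus R2 (22.8%, and 46.8% in either direction). Nothing further is read from these counts.

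The label that calls these genes lower in R1 holds for 53 of them against control. DKK3, IMMP1L and LIN7C had R1 means above control, and IMMP1L and LIN7C had R1 means above R2 as well. For 32 genes all 4 R1 libraries lay below all 4 control and all 4 R2 libraries, which was so for 10.4% of all listed genes. R1 lay wholly below control for 37 genes (19% of all genes) and wholly below R2 for 40 (19.1%).

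The shift in R1 was close to the same in each R1 library. The median of the 56 genes, set to the mean of the control libraries, was -0.65, -0.59, -0.55 and -0.61 in R1 replicates 1 to 4, and 0.19, 0.16, 0.13 and 0.03 in R2 replicates 1 to 4. The control libraries lay between -0.01 and 0.04, and R2 replicate 4 lay within that range. Together the 56 genes took 0.435% ± 0.022 of the reads in control, 0.313% ± 0.006 in R1 and 0.538% ± 0.021 in R2. When libraries were rescaled without mitochondrial genome and ribosomal protein transcripts, the median R1 minus control difference was -0.61, beside 0.06 over all genes.

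**Figure D1:**
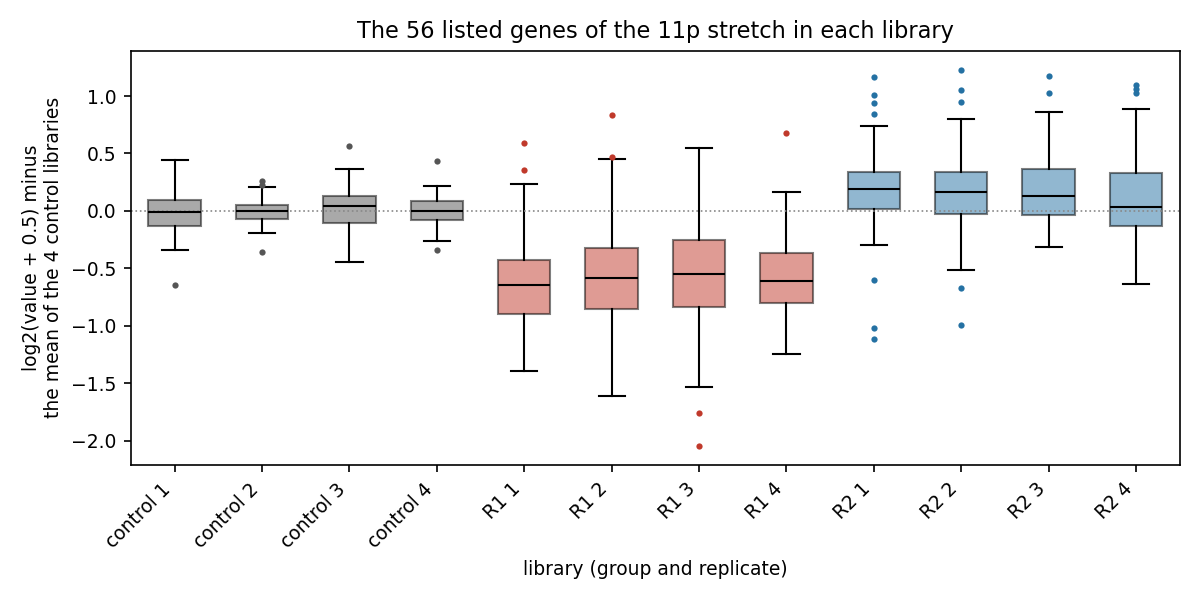
Each box shows the 56 listed genes in 1 library (x axis: group and replicate, y axis: log2(value + 0.5) minus the mean of the 4 control libraries). The line is the median, the box the quartiles, the whiskers reach 1.5 times the box height, and points lie beyond them. The medians of the 4 R1 libraries sit between -0.65 and -0.55, below those of all control and R2 libraries.

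10 of the genes serve transcription, and all 10 had lower means in R1 than in both other groups, with a median difference of -0.75 against control and -0.94 against R2. ZBED5, which encodes a protein derived from a DNA transposon, had the largest deficit against control of the 56 and lies at chr11:10852706-10858053. Its values, here and below for replicates 1 to 4 in order, were 23.3, 22.4, 20.8 and 24.6 in control, 9.78, 7.11, 7.93 and 10.4 in R1 and 25, 28.6, 21.2 and 28.6 in R2. The 4 R1 values lay well below the other 8, with a difference of -1.33 against control and -1.51 against R2. POLR2L encodes a small subunit shared by RNA polymerases I, II and III. Its values were 209, 169, 172 and 133 in control, 107, 83.6, 147 and 104 in R1 and 239, 274, 219 and 190.3 in R2. R1 and control overlapped for POLR2L through R1 replicate 3 and control replicate 4, and all 4 R2 values lay above R1. GTF2H1 encodes a core subunit of TFIIH, the factor that opens promoter DNA and takes part in nucleotide excision repair. Its values were 67, 67.8, 56.5 and 62.8 in control, 40.2, 31.3, 35.8 and 38.8 in R1 and 78.8, 75, 89.5 and 97.9 in R2, and the 3 groups did not overlap, with R1 lowest and R2 highest. ELP4 encodes a subunit of Elongator, which modifies the wobble base of tRNAs. ELP4 values were 15.8, 16.3, 18.1 and 18.3 in control, 10.7, 8.69, 9.98 and 10.6 in R1 and 19.4, 19, 18.8 and 18.2 in R2, with all R1 values below the others.

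The other transcription genes showed the same order of R1 against control. TAF10, a TFIID subunit, averaged 135 in control, 63.6 in R1 and 137 in R2. PHRF1, a PHD and RING finger ubiquitin ligase, averaged 99.8 in control, 50.9 in R1 and 102 in R2. DEAF1, a DNA-binding transcription factor, averaged 53.8 in control, 32.6 in R1 and 54.2 in R2. For these 3 genes R1 lay wholly below both other groups, and for TAF10 the R1 mean was under 0.5 of control. CTR9, a scaffold of the PAF1 elongation complex, averaged 102 in control, 63.1 in R1 and 115 in R2. ZNF143, a zinc finger activator of promoters, averaged 25.8 in control, 19.9 in R1 and 22.9 in R2. ARNTL (BMAL1), the partner of CLOCK in the circadian activator, averaged 18.6 in control, 15.2 in R1 and 20.1 in R2. R1 overlapped control for ZNF143 and ARNTL and did not for CTR9.

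14 genes belong to vesicle traffic and membranes, and 13 of them had lower means in R1 than in control, with a median of -0.71 against control and -0.72 against R2. PIK3C2A, a class II PI3-kinase of clathrin-mediated endocytosis at chr11:17086575-17207986, had values of 60.7, 58, 48.7 and 60.5 in control, 24.8, 33, 13.4 and 24.5 in R1 and 69.9, 82.9, 69 and 82.8 in R2. R1 lay below control without overlap and R2 lay above control, and the R1 minus R2 difference of -1.71 was the largest deficit of the 56 genes. BET1L, a Golgi SNARE and the first gene of the stretch, had values of 60.3, 55.3, 53.2 and 53 in control, 24.9, 30.2, 28.7 and 27.7 in R1 and 64.8, 66.2, 60.3 and 58.4 in R2, with R1 near 0.5 of control (ratio 0.503). ARFIP2, a BAR domain protein that binds ARF and ARL GTPases at the Golgi, had values of 128, 129.7, 138 and 125 in control, 74.5, 89.5, 109 and 85.5 in R1 and 161, 184, 133 and 127 in R2. The R1 values of ARFIP2 were the lowest, and R2 overlapped control. TMEM41B encodes a lipid scramblase of the endoplasmic reticulum needed for autophagosome formation. TMEM41B values were 26.6, 28.6, 28.6 and 31.6 in control, 16.6, 22.4, 17.7 and 19.1 in R1 and 39.1, 45.6, 46.1 and 52.1 in R2, in 3 groups that did not overlap. HPS5 encodes a subunit of BLOC-2, which sorts cargo to melanosomes and other lysosome-related organelles. HPS5 values were 23.6, 23.4, 19.3 and 20.8 in control, 22.2, 18.6, 17.7 and 21.1 in R1 and 22.4, 22.1, 21.3 and 20.9 in R2. All 3 groups overlapped for HPS5, whose difference was -0.13 against control and -0.13 against R2, and -0.07 against control without R1 replicate 3.

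Of the remaining traffic genes, AP2A2, the alpha subunit of the AP-2 endocytic adaptor, averaged 101 in control, 42.2 in R1 and 106 in R2. TSG101, the cargo-binding subunit of ESCRT-I, averaged 100.3 in control, 57.9 in R1 and 93.5 in R2. COPB1, the beta subunit of the COPI coat, averaged 124 in control, 91.6 in R1 and 126 in R2. For all 3 the R1 values lay below both other groups. SBF2, a myotubularin-related pseudophosphatase, averaged 42.4 in control, 22.9 in R1 and 51.4 in R2. ST5 (DENND2B), an exchange factor for RAB GTPases, averaged 50.6 in control, 28.6 in R1 and 52.1 in R2. TOLLIP, an adaptor that links Toll-like receptor signalling with endosomal sorting, averaged 47.6 in control, 29.7 in R1 and 45.4 in R2. R1 was wholly below both groups for these 3 genes as well. TMEM80, a transmembrane protein, averaged 8.21 in control, 4.7 in R1 and 7.26 in R2, and SERGEF averaged 6.15 in control, 5.06 in R1 and 5.84 in R2. R1 overlapped R2 for TMEM80, and all groups overlapped for SERGEF. LIN7C, a PDZ scaffold that holds receptors and channels at polarised membranes, went the other way. LIN7C values were 26.8, 27, 19.4 and 20.9 in control, 35.4, 32, 34.3 and 37.5 in R1 and 29.6, 34.1, 26.1 and 31.3 in R2, and all 4 R1 values lay above all 4 control values.

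The 3 tetraspanins, membrane proteins that organise integrins and other partners into microdomains, had small deficits in R1. CD151, a partner of laminin-binding integrins, had values of 283, 286, 396 and 318 in control, 286, 277, 329 and 268 in R1 and 401, 372, 362 and 283 in R2. TSPAN4, a protein of migrasomes, had values of 50.4, 49.3, 55.9 and 48.4 in control, 36.5, 37.7, 45.5 and 35.4 in R1 and 44.2, 31.9, 48.2 and 37.7 in R2. CD81, a component of extracellular vesicles and of the B cell coreceptor, averaged 159.8 in control, 129 in R1 and 167 in R2. The R1 minus control differences were -0.14 for CD151, -0.40 for TSPAN4 and -0.31 for CD81, and that of CD151 was -0.03 without control replicate 3. The groups overlapped for CD151 and CD81, and for TSPAN4 both R1 and R2 lay below control.

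All 6 listed genes of adhesion and the cytoskeleton had lower means in R1, with a median of -0.68 against control and -0.76 against R2. NAV2, a cytoskeleton-associated protein of cell migration and neurite growth, had values of 57.1, 42.9, 35.9 and 35 in control, 18.7, 24, 12.1 and 17.4 in R1 and 20.4, 20.8, 33.6 and 33.4 in R2. NAV2 was highest in control, and R1 overlapped R2. MICAL2, a monooxygenase that oxidises actin filaments, had values of 243, 246, 218 and 224 in control, 162, 227, 118 and 143 in R1 and 469, 274, 473 and 486 in R2. Control replicates lay between R1 and R2 for MICAL2, except that R1 replicate 2 reached the control range. ILK and PARVA (alpha-parvin) encode members of one complex that ties integrins to actin. ILK averaged 130.4 in control, 83 in R1 and 146 in R2, and PARVA averaged 95.6 in control, 60.6 in R1 and 113 in R2. SWAP70, a RAC-binding protein of actin-rich protrusions, averaged 46.9 in control, 25.9 in R1 and 41.2 in R2. MOB2, a binder of NDR kinases, averaged 19.5 in control, 12 in R1 and 19.8 in R2. R1 lay wholly below control and R2 for these last 4 genes.

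For the 4 genes of nuclear transport, chromatin assembly and DNA repair, R1 lay wholly below both other groups. IPO7, a nuclear import receptor, had values of 380.4, 369.6, 332 and 380.0 in control, 247, 198, 195 and 290.0 in R1 and 573, 552, 559 and 675 in R2. NUP98, a nucleoporin with FG repeats that is also part of leukaemia fusion genes, had values of 272, 238, 198 and 200.3 in control, 142, 101, 152 and 170.5 in R1 and 259, 264, 296 and 286 in R2. NAP1L4, a histone chaperone, averaged 104 in control, 74.8 in R1 and 117 in R2. FANCF, an adaptor of the Fanconi anaemia core complex, averaged 8.28 in control, 5.05 in R1 and 11.5 in R2. The median difference of the 4 was -0.67 against control and -1.06 against R2, and R2 was above control in all 4 by group mean.

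Of 3 mitochondrial genes, SIRT3 and METTL15 were low in R1 and IMMP1L was not. SIRT3, the main deacetylase of the mitochondrial matrix, had values of 12.9, 14.3, 14.4 and 13.8 in control, 7.26, 8.29, 8.2 and 7.91 in R1 and 18.6, 19.7, 15.9 and 16.4 in R2. METTL15, which methylates mitochondrial small-subunit rRNA, had values of 13.9, 14.9, 15 and 15.4 in control, 9.17, 7.42, 6.95 and 7.14 in R1 and 14.4, 13.4, 14.2 and 15.9 in R2. R1 lay wholly below both groups for both. IMMP1L encodes a subunit of the inner membrane peptidase. Its values were 3.61, 2.92, 2.5 and 2.63 in control, 3.49, 2.76, 3.27 and 3.31 in R1 and 3.2, 1.91, 3.09 and 3.35 in R2, with all groups overlapping. The R1 minus control difference of IMMP1L was 0.13, 0.22 without control replicate 1 and 0.07 without control replicate 3. The metabolic genes were more mixed. AMPD3, an AMP deaminase, had values of 3.85, 4.83, 9.59 and 8.72 in control, 2.45, 8.95, 1.86 and 2.38 in R1 and 2.65, 4.75, 6.77 and 6.2 in R2. FAR1, a peroxisomal reductase that supplies fatty alcohols for ether lipids, had values of 53.3, 57, 34.9 and 48.1 in control, 37.5, 33, 30.8 and 42.2 in R1 and 85.6, 83, 83.2 and 97.2 in R2. PTDSS2, a phosphatidylserine synthase, averaged 21.6 in control, 18.3 in R1 and 23.3 in R2. R1 overlapped control for all 3, and R1 lay wholly below R2 for FAR1. The R1 minus control difference of AMPD3 was -0.88, and -1.33 without R1 replicate 2.

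5 genes encode proteins of calcium handling or the secretory pathway. STIM1, the calcium sensor of the endoplasmic reticulum that opens ORAI channels, had values of 25.9, 31.1, 31.3 and 31.7 in control, 25.1, 31.3, 29.5 and 28.8 in R1 and 50.2, 58, 46.1 and 46.3 in R2. R1 and control overlapped for STIM1, and its R1 minus R2 difference of -0.79 came with R2 values above all others. NUCB2, a calcium-binding protein and the precursor of nesfatin, had values of 41.8, 41.9, 51.4 and 54.1 in control, 26.2, 32.8, 28.7 and 29 in R1 and 47.2, 47.1, 43 and 45.1 in R2. RCN1, a calcium-binding protein of the endoplasmic reticulum and the last gene of the stretch, had values of 139, 135, 177 and 174 in control, 81.5, 108, 108 and 98.2 in R1 and 102, 114, 132 and 129 in R2. NUCB2 was low in R1 alone, while RCN1 was below control in both R1 and R2. DKK3, a secreted protein of the Dickkopf family, had values of 97.1, 100.4, 137 and 125 in control, 145, 203, 100.2 and 91.1 in R1 and 256, 236, 207 and 192 in R2. R1 replicate 2 of DKK3 lay inside the R2 range and the other R1 values did not, and the R1 minus control difference was 0.17. Without R1 replicate 2 it was -0.05. CHID1, a secreted protein with a chitinase-like domain, averaged 109 in control, 81.5 in R1 and 122 in R2, with R1 wholly below both groups.

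All 8 genes of signalling and of RNA or protein turnover had lower means in R1, with a median of -0.48 against control and -0.79 against R2. RNH1, the cytosolic inhibitor of pancreatic-type ribonucleases, had values of 195, 186, 216 and 184 in control, 131, 129, 169 and 141 in R1 and 199, 194, 189.9 and 147 in R2. TRIM5, a restriction factor that binds retroviral capsids, had values of 19.6, 22.7, 25.2 and 27.2 in control, 10.8, 19.9, 9.26 and 11.7 in R1 and 28.5, 30.0, 22.7 and 23.5 in R2. R1 lay below control and overlapped R2 for RNH1, and R1 replicate 2 of TRIM5 reached the control range. RIC8A, a chaperone and exchange factor of G protein alpha subunits, had values of 189.6, 186, 175 and 146 in control, 112, 117, 133 and 126 in R1 and 209, 189, 223 and 188 in R2. HTATIP2 (TIP30), an oxidoreductase-like protein described as a metastasis suppressor, lies at chr11:20363714-20383782 and had values of 18.9, 21.6, 27.4 and 27.4 in control, 18.3, 21.8, 21.4 and 17.7 in R1 and 45.5, 55.9, 53.7 and 50.8 in R2. R1 lay wholly below both groups for RIC8A, while for HTATIP2 R1 overlapped control and R2 stood above both. USP47, a deubiquitinase, averaged 52 in control, 39.3 in R1 and 70.8 in R2. PRMT3, an arginine methyltransferase of ribosomal protein RPS2, averaged 35.2 in control, 23.9 in R1 and 49 in R2. BTBD10 averaged 35.4 in control, 21.7 in R1 and 36.1 in R2, and TSSC4 averaged 36.9 in control, 29.9 in R1 and 32.1 in R2. R1 was wholly below both groups for PRMT3 and BTBD10, and all groups overlapped for TSSC4.

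**Figure D2:**
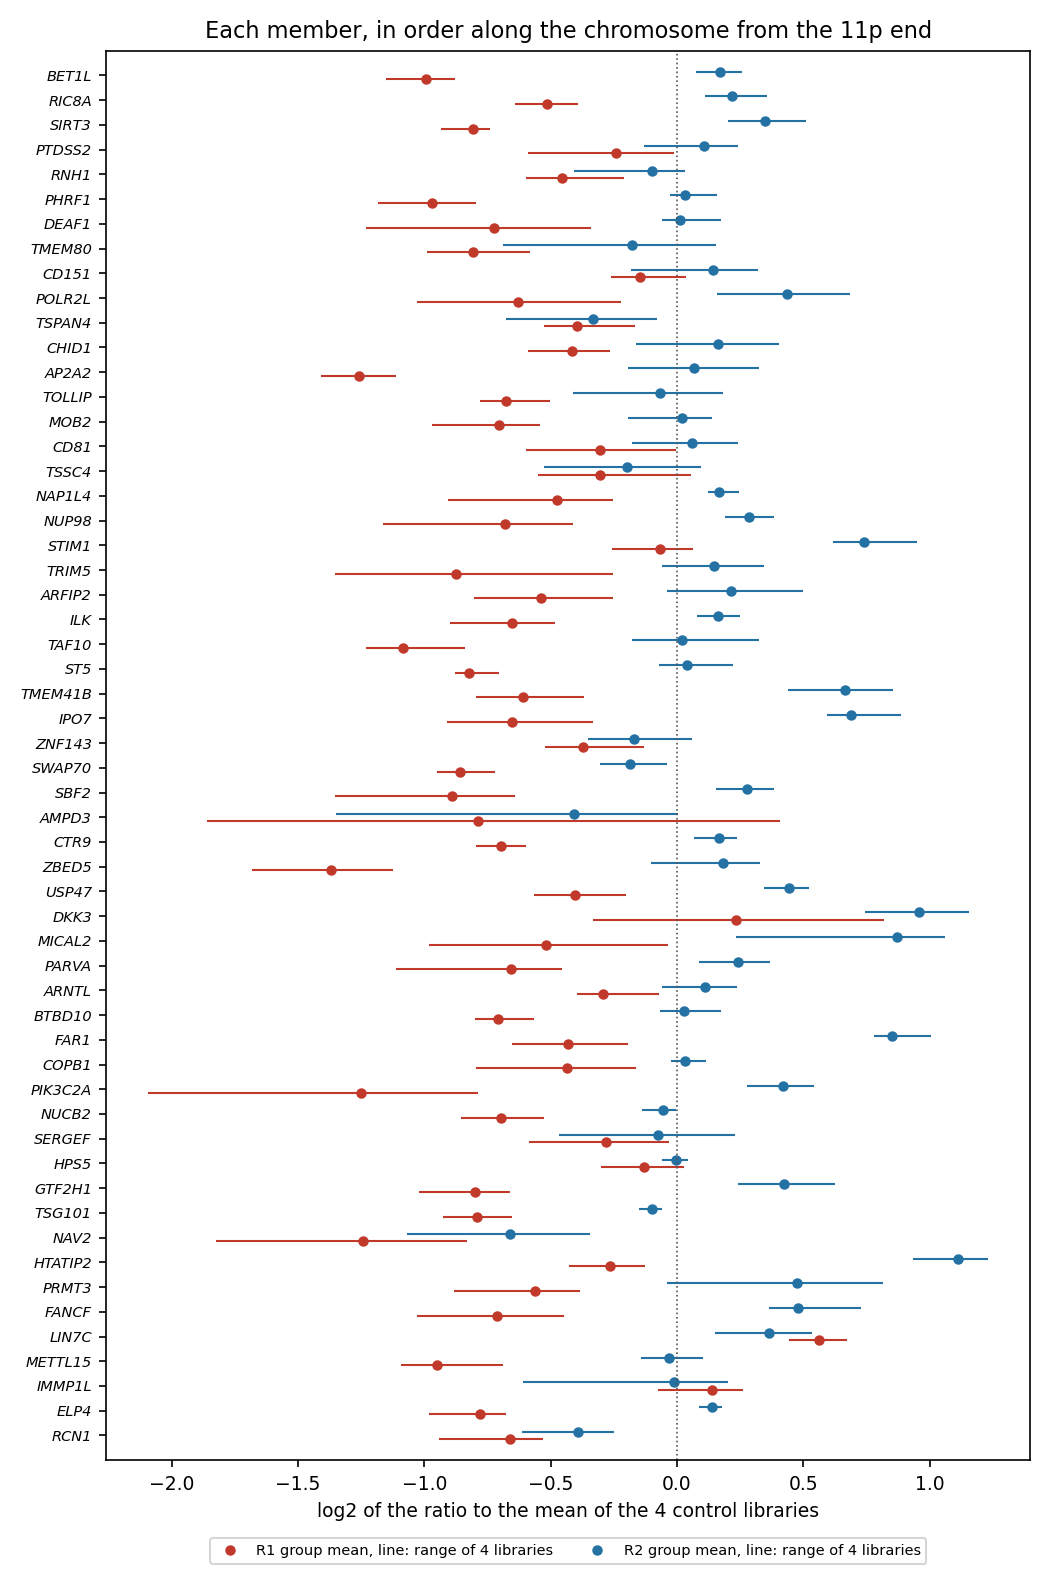
Every one of the 56 genes from BET1L at the top to RCN1 at the bottom, in the order of their positions (x axis: log2 of the ratio to the control mean). Points are group means and lines the range of 4 libraries, for R1 and R2. R1 means lie left of 0 for 53 genes, and DKK3, LIN7C and IMMP1L are the 3 to the right.

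Because the library kit does not mark strand, reads from genes that overlap on opposite strands cannot be told apart. 11 of the 56 genes overlap another listed gene. These include the pairs ILK and TAF10, DEAF1 and TMEM80, and RIC8A and SIRT3, both genes of which are described here. TRIM5 overlaps TRIM6, RNH1 overlaps LRRC56, and DEAF1 also overlaps EPS8L2. SBF2 overlaps SBF2-AS1, ELP4 overlaps PAX6, and IMMP1L overlaps DNAJC24.

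4 pairs of the genes start within 1000 bases of each other on opposite strands, and the promoter sequences of HPS5, GTF2H1 and ELP4 are shown because the partners of these pairs stood apart in R1. BET1L and RIC8A start 309 bases apart, with R1 minus control differences of -0.98 and -0.51. POLR2L and TSPAN4 start 323 bases apart (-0.64 and -0.40), HPS5 and GTF2H1 393 bases apart (-0.13 and -0.79), and IMMP1L and ELP4 145 bases apart (0.13 and -0.75). In the last 2 pairs 1 partner lay near its control level and the other well below it. The windows run from 250 bases before to 50 bases after a start site, are from RefSeq on GRCh38.p14, and are written 5′ to 3′ along the gene's own strand. Capitals mark matches on either strand to CCAAT (the CCAAT box), GGGCGG (the GC box), TATAAA (the TATA box), CACGTG (an E-box) and CGGAAG (an ETS core). Matches may touch or overlap.
HPS5 is shown at chr11:18322091-18322390 on the minus strand and GTF2H1 at chr11:18322317-18322616 on the plus strand, with 74 bases in common. The HPS5 window is set on a start site at 18322140. The 393 bases between the starts of HPS5 and GTF2H1 are counted from 18322174, the outer end of HPS5 by its RefSeq position. ELP4 is shown at chr11:31509517-31509816 on the plus strand. The IMMP1L window shares 244 bases with it.
HPS5: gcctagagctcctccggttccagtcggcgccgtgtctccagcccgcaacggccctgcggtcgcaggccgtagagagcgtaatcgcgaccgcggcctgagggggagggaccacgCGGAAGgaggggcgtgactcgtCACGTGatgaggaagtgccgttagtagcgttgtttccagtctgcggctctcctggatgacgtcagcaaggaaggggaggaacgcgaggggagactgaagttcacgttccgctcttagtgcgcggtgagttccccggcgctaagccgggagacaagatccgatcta
GTF2H1: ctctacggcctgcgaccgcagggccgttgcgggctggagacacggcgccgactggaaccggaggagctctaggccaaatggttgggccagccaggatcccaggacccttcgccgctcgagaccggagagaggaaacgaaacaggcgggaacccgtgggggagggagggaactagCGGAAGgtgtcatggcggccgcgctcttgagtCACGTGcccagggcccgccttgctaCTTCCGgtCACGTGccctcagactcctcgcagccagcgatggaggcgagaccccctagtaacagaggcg
ELP4: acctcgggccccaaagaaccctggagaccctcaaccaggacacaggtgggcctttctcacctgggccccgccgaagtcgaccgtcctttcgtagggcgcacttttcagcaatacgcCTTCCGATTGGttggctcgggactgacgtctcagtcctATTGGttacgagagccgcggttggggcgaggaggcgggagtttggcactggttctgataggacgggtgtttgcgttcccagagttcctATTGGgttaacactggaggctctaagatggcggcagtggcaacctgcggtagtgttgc

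In the pair of HPS5 and GTF2H1, the GTF2H1 window held 2 E-box and 2 ETS core matches and the HPS5 window 1 of each. The ELP4 window held 3 CCAAT boxes and 1 ETS core, and these matches were also counted in the IMMP1L window, since the windows overlap. ELP4 and IMMP1L, which stood apart in R1, thus share these letters.

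Over all 50 genes with a window, 20 held a CCAAT box (40%, against 37.3% of the 9935 listed genes with a window) and 34 a GC box (68% against 70.6%). A TATA box was in 1 window (2% against 5.30%), an E-box in 8 (16% against 10.4%) and an ETS core in 23 (46% against 33.9%). Median GC content was 67% against 65.3%, and 42 windows (84%) had an observed to expected CpG ratio over 0.6, as did 84.0% of all. BET1L, RIC8A, CD151, CD81, DKK3 and PARVA had no window. A match is a description of these letters and not of factor binding.

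The stretch holds 149 listed genes with a RefSeq position, so 93 lie between the 56 without being named by the rule. The R1 minus control difference of these 93 had a median of -0.60, and 71 of them lay below 0. Against R2 their median was -0.73 and 76 lay below 0. Without the first and last 5 Mb of the stretch the median of the 49 remaining was -0.62. Since the stretch itself was chosen on these contrasts, these values too are a description. Their spread was wider than that of the 56, from -5.58 to 2.41 against control. The 5 with the highest differences in R1 were CYP2R1 (a vitamin D hydroxylase), INSC (a spindle orientation protein), E2F8 (a cell cycle repressor), APBB1 (an adaptor of the amyloid precursor protein) and SLC22A18 (a transporter), at 2.41, 2.14, 1.35, 1.32 and 0.97. CYP2R1 averaged 0.443 ± 0.141 in control, 4.53 ± 0.842 in R1 and 9.46 ± 1.65 in R2. APBB1 averaged 10.4 in control, while INSC, E2F8 and SLC22A18 averaged only 1.04, 0.952 and 1.08 there. At such low values the added 0.5 weighs on the differences.

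Along the chromosome in bins of 5 Mb, the median R1 minus control difference was -0.62 from 0 to 5 Mb (56 genes), -0.66 from 5 to 10 Mb (37 genes), -0.51 from 10 to 15 Mb (20 genes) and -0.72 from 15 to 20 Mb (19 genes). It was -0.62 from 20 to 25 Mb, where all 4 listed genes lay below 0, and 0.11 from 25 to 30 Mb, where 3 of 7 did. The bin from 30 to 35 Mb, which holds the end of the stretch, had a median of -0.19 (27 genes), and that from 35 to 40 Mb had -0.36 (9 genes). Against R2 the medians of these last 3 bins were 0.06, -0.48 and -0.79. Past RCN1, 71 genes up to 50 Mb had a median of -0.19 against control and -0.33 against R2, and 464 genes from 50 Mb on had 0.13 and 0.04. No listed gene lay between BET1L and the tip. On the other side of RCN1, WT1 (a zinc finger transcription factor), WT1-AS (its antisense transcript) and EIF3M (a translation initiation factor subunit) differed from control by -0.30, -0.64 and -0.17, beside -0.65 for RCN1 just inside. Against R2 the values were -0.33, -1.01, -0.44 and -0.27.

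**Figure D3:**
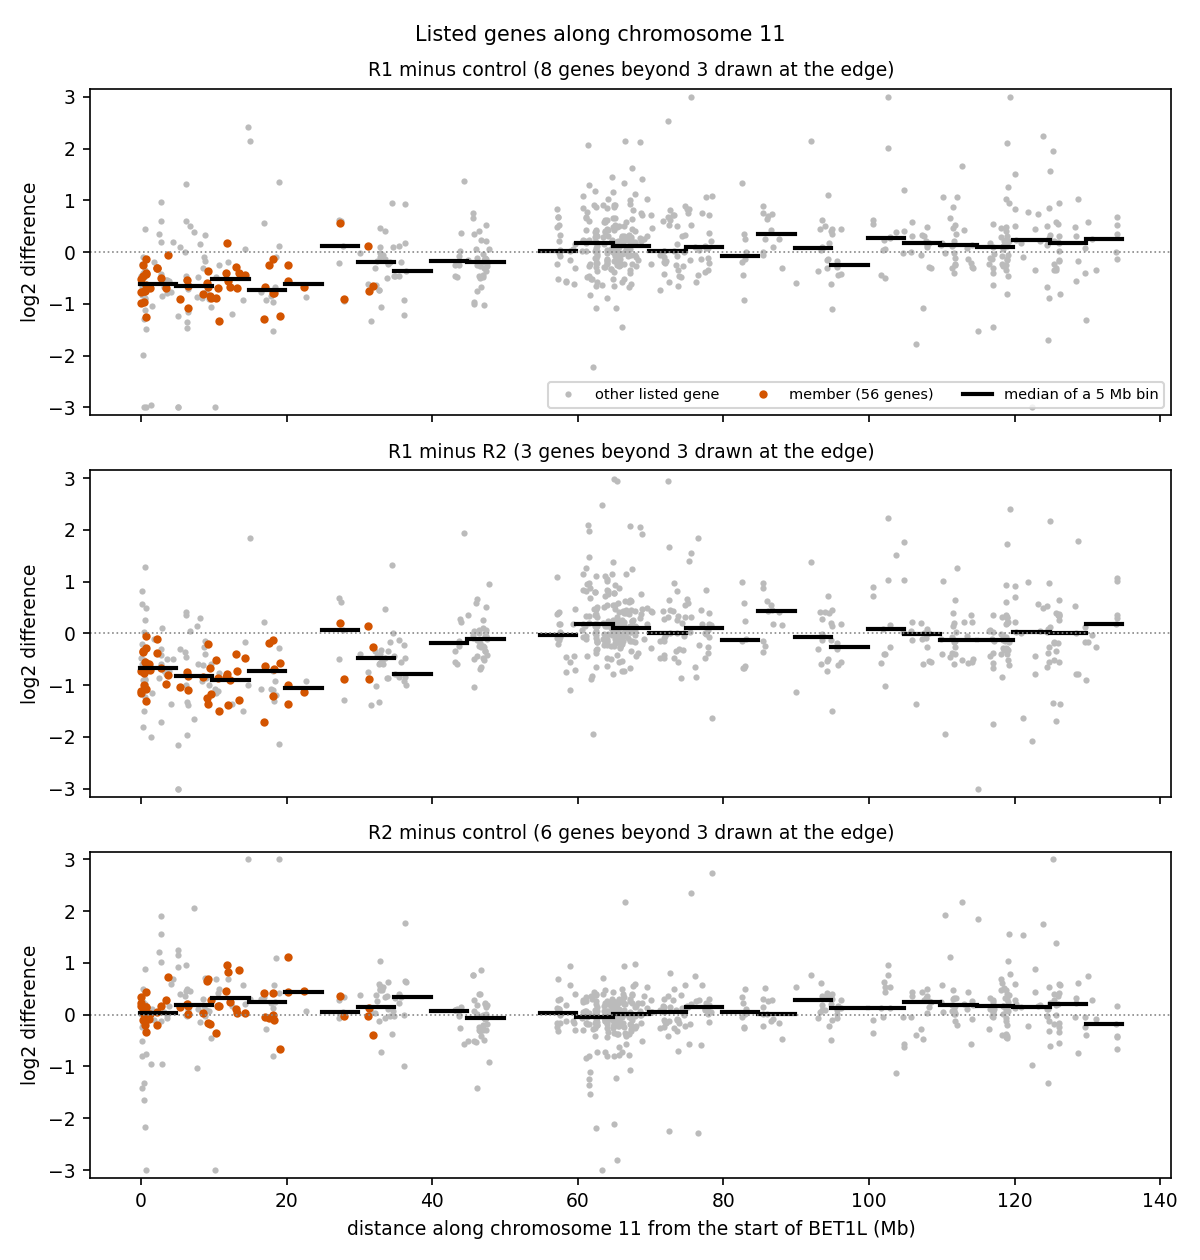
Listed genes of chromosome 11 by distance from the start of BET1L in Mb (x axis) and log2 difference (y axis) in R1 minus control, R1 minus R2 and R2 minus control. The 56 genes are in colour, other listed genes in grey, and black lines are medians of 5 Mb bins, with differences beyond 3 drawn at the edge. In R1 minus control the bin medians run from -0.72 to -0.51 over the first 25 Mb, and from 50 Mb on the median over 464 genes was 0.13.

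R2 was compared with control to see how the same genes stood in the group labelled R2, with limma across all listed genes and Benjamini-Hochberg adjustment. 40 of the 56 genes lay above control and 16 below, where 47.1% of all listed genes lay below. The median was 0.14, beside 0.03 over all genes, and it was 0.08 without control replicate 1 and 0.08 without R2 replicate 1. 14 of the 56 (25%) passed, where 28.4% of all listed genes did. By direction, 12 rose (21.4%, beside 13.6% of all genes) and 2 fell (3.57%, beside 14.8%). Picking genes with R1 below R2 favours high R2 values, so this split, and that of 40 above and 16 below, is no test. Of the 93 other listed genes of the stretch, 26 rose and 12 fell in R2 minus control. With edgeR on recovered reads 13 of the 56 passed, beside 27.6% of all genes. The R2 and control libraries did not overlap for 18 of the 56 (14 higher and 4 lower in R2), where 34.8% of all listed genes did not overlap.

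The rises of at least 1.5-fold by group means were in HTATIP2, DKK3, MICAL2, FAR1, STIM1, IPO7 and TMEM41B, whose values by library are given above. Picking genes with R1 below R2 favours such rises. Their adjusted p-values, here and for the smaller rises below, are therefore no independent test. In R1, HTATIP2, STIM1 and DKK3 differed from control by -0.25, -0.06 and 0.17, and from R2 by -1.36, -0.79 and -0.79. HTATIP2 rose by 1.11 (SE 0.13, adjusted p = 2.89e-05), a ratio of 2.16, and all 4 R2 values lay above all 4 control values. DKK3 rose by 0.96 (SE 0.21, adjusted p = 0.00362) and MICAL2 by 0.83 (SE 0.20, adjusted p = 0.00622). MICAL2 was nearer to control in R2 replicate 2 than in the other R2 libraries, and still above every control value. FAR1 rose by 0.87 (SE 0.15, adjusted p = 0.000497), also without overlap. STIM1 rose by 0.73 (SE 0.11, adjusted p = 0.000242). IPO7 rose by 0.69 (SE 0.13, adjusted p = 0.0012) and TMEM41B by 0.65 (SE 0.12, adjusted p = 0.000975). Neither overlapped control.

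Smaller rises were found in the deubiquitinase USP47, by 0.45 (SE 0.11, adjusted p = 0.00729), and the TFIIH subunit GTF2H1, by 0.42 (SE 0.11, adjusted p = 0.0133). SIRT3 rose by 0.34 (SE 0.11, adjusted p = 0.0375), FANCF by 0.45 (SE 0.15, adjusted p = 0.0352) and LIN7C by 0.37 (SE 0.13, adjusted p = 0.046). NAV2 fell, with a difference of -0.66 (SE 0.23, adjusted p = 0.0415), and so did RCN1, at -0.39 (SE 0.13, adjusted p = 0.0378). The calls of SIRT3, FANCF, LIN7C, NAV2 and RCN1 did not hold when single libraries were left out, and those of the other 9 held in all 21 alternative fits. Without control replicate 3, or without R2 replicate 1, 9 of the 56 genes passed in place of 14. The share of all listed genes that passed in those fits is not given here. Whether the drop is particular to the 56 was not tested.

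By role, 2 of the 4 nuclear transport and repair genes rose (IPO7, FANCF), 1 of 10 transcription genes (GTF2H1), 2 of 14 traffic genes (TMEM41B, LIN7C) and 2 of 8 signalling and turnover genes (USP47, HTATIP2). Among 5 calcium and secretory genes 2 rose (STIM1, DKK3) and 1 fell (RCN1), and among 6 adhesion and cytoskeleton genes 1 rose (MICAL2) and 1 fell (NAV2). SIRT3 was the 1 of 3 mitochondrial genes that rose, and FAR1 the 1 of 3 metabolic genes. Over all listed genes 13.6% rose and 14.8% fell, and counts this small set no role apart. The calls of FANCF, LIN7C, SIRT3, NAV2 and RCN1 counted here are those that did not hold when single libraries were left out. POLR2L, at 0.44 (SE 0.17, adjusted p = 0.0702), PRMT3, at 0.44 (SE 0.18, adjusted p = 0.0831), and TSPAN4, at -0.34 (SE 0.13, adjusted p = 0.0614), missed the threshold. The tetraspanins CD151 and CD81 stood at 0.15 and 0.06 in R2 minus control. Along the stretch, the R2 minus control median was 0.03 from 0 to 5 Mb, 0.18 from 5 to 10 Mb, 0.33 from 10 to 15 Mb and 0.25 from 15 to 20 Mb. It was 0.44 from 20 to 25 Mb (4 genes) and 0.05 from 25 to 30 Mb. Outside the stretch it reached 0.35 from 35 to 40 Mb and 0.28 from 90 to 95 Mb. Over the 464 genes from 50 Mb on it was 0.07.

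**Figure D4:**
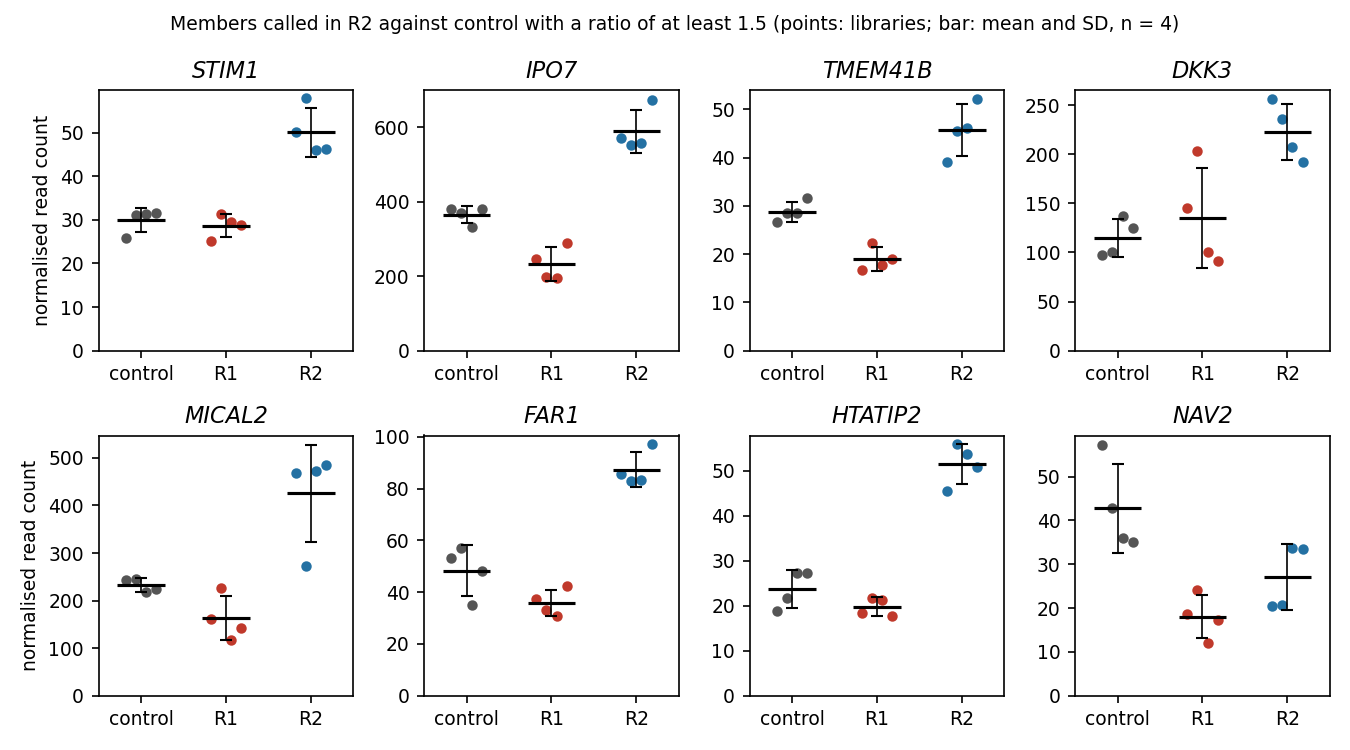
Normalised read counts (y axis, from 0) of the 8 genes called in R2 minus control with a ratio of group means of at least 1.5 in either direction. Points are libraries, bars the mean and SD of 4, for control, R1 and R2. In 7 panels R2 stands above control, and in that of NAV2 it stands below.

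Many of the 56 genes encode 1 subunit of a complex or 1 enzyme of a family whose other genes lie elsewhere in the genome. Those partners, which the rule did not use, were followed in 17 lists with 186 listed genes, none of them inside the stretch. In R1 minus control 46 of the 186 rose and 31 fell, so 77 (41.4%) passed where 43.8% of all listed genes did (22.4% higher, 21.4% lower), with a median of 0.05. In R2 minus control 21 rose and 26 fell (25.3%), with a median of -0.02, and 28.4% of all genes passed. Neither share was far from that of all genes.

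Around GTF2H1, 5 of 8 other TFIIH genes rose in R1, among them MNAT1, by 0.96 (SE 0.13, adjusted p = 3.79e-05), and ERCC3, the helicase, by 0.55 (SE 0.09, adjusted p = 0.000336). Around AP2A2, 5 of 9 genes of AP-2 and clathrin rose, such as the light chain CLTB, by 0.73 (SE 0.13, adjusted p = 0.000328), and AP2S1, by 0.63 (SE 0.11, adjusted p = 0.00048). Around TSG101, 4 of 9 ESCRT genes rose and 1 fell, with VPS28 up by 0.76 (SE 0.14, adjusted p = 0.000504).

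Around CTR9, 3 of 5 genes of the PAF1 complex fell and 1 rose, with PAF1 at -1.14 (SE 0.10, adjusted p = 1.28e-06) and RTF1 at -0.53 (SE 0.11, adjusted p = 0.0018). Around ILK and PARVA, 3 of 10 genes fell and 2 rose, with RSU1 at -0.51 (SE 0.10, adjusted p = 0.00067) and zyxin (ZYX) at -0.57 (SE 0.13, adjusted p = 0.00284). Of 11 COPI genes 3 fell and 2 rose, and of 15 TFIID genes 4 fell and 4 rose. Of 16 tetraspanins 7 rose and 4 fell, with CD82, itself on 11p beyond RCN1, up by 1.38 (SE 0.26, adjusted p = 0.000636). Of 39 genes of the nuclear pore and its transport receptors 7 fell and 5 rose, with IPO8 at -1.18 (SE 0.11, adjusted p = 1.60e-06) and NUP88 at -1.04 (SE 0.13, adjusted p = 2.75e-05).

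In the Fanconi anaemia core, 4 of 10 genes rose and 1 fell, while among 17 clock genes 2 rose and 2 fell, such as CRY2, at 0.67 (SE 0.14, adjusted p = 0.00168), and PER1, at -1.18 (SE 0.20, adjusted p = 0.000288). For RNA polymerase II 1 of 10 partners of POLR2L rose (POLR2H) and 1 fell (POLR2A). The 10 relatives of PIK3C2A and SBF2 held 1 rise (MTM1) and 1 fall (PIK3R4). The call of MTM1, at 0.45 (SE 0.14, adjusted p = 0.019), did not hold without control replicate 4 (adjusted p = 0.0555) or without R1 replicate 4 (adjusted p = 0.0629). SIRT6 was the 1 of 6 partners of SIRT3 and IMMP1L that rose, and HPS6 the 1 of 2 partners of HPS5. Of the 4 calcium entry partners of STIM1 (STIM2, ORAI1, ORAI2, ORAI3) 0 passed by limma, 0 at an unadjusted p under 0.05, and 0 by edgeR or DESeq2, with differences from -0.58 to 0.20. In R2 minus control, IPO8, NUP88, RTF1 and PER1 also passed as falls, and MNAT1, CLTB, CRY2 and MTM1 as rises. The other partners named above as passing in R1 did not pass in R2. IPO8 lies on chromosome 12, RTF1 on chromosome 15, and NUP88, PER1 and POLR2A on chromosome 17. CRY2, like CD82, lies on 11p beyond RCN1.

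**Figure D5:**
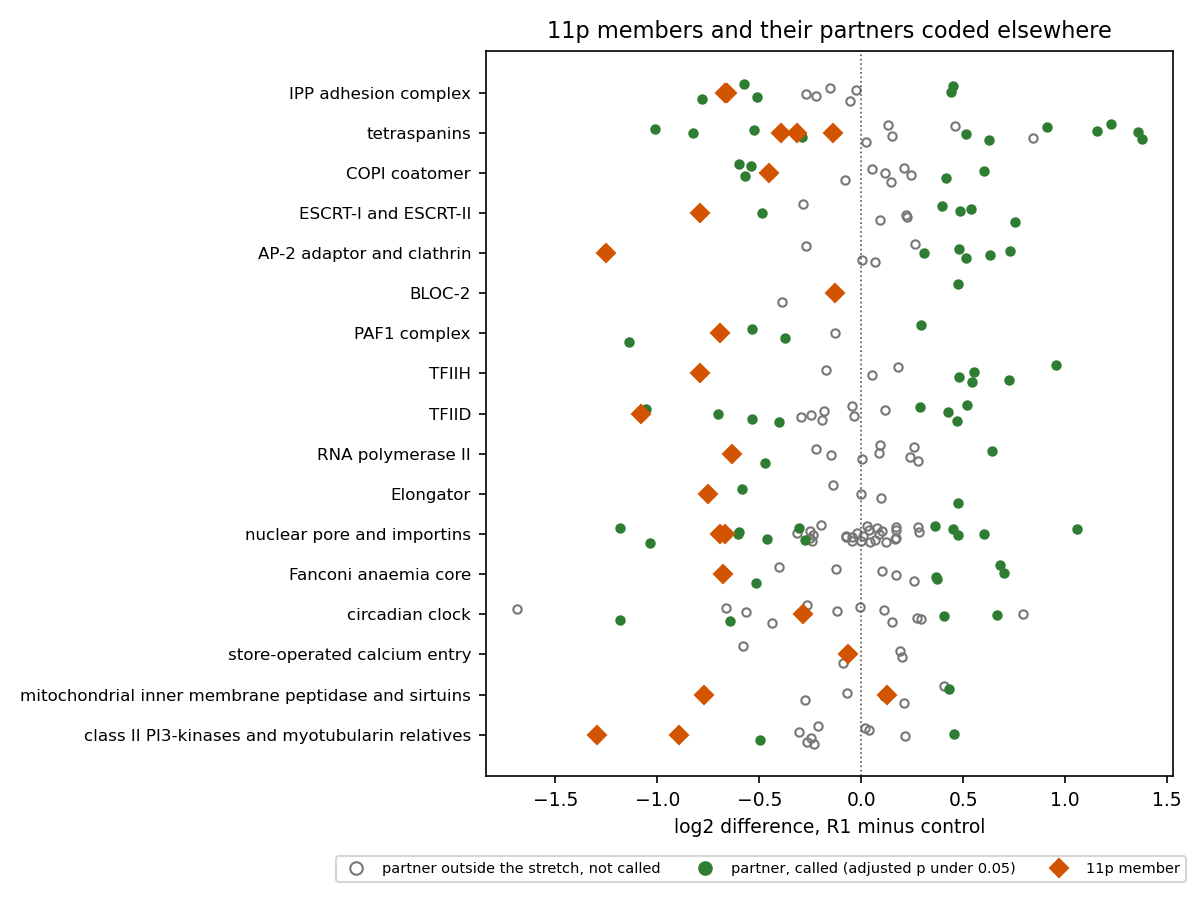
R1 minus control log2 difference (x axis) of the 186 partner genes in 17 lists (y axis), with filled circles for the 77 that passed and open circles for the others. Diamonds are the 11p genes that belong to each list. The filled circles lie on both sides of 0.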

How the data were processed

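RNA from 12 WM1366 samples was sequenced with TruSeq RNA v2 libraries, per the labels' protocols. The submitters' processing notes name STAR, edgeR and GRCh38; their versions are not given in the sources used here. The authors deposited, for each library, 1 signal value per gene for 12931 rows. In every library 100% of the values were whole multiples of the worth of 1 read within 0.001, so read counts were recovered and the deposited signal is a count scaled for library size. The members and lists were chosen with earlier results of these data known.

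The main fit was limma 3.58.1 (R 4.3.3) with a mean-variance trend on log2(value + 0.5), with 3 group means, no filter and Benjamini-Hochberg adjustment over all rows at 0.05. The alternatives were pseudocounts of 0.1 and 2, a mean value of at least 10, TMM scaling, rescaling without 99 mitochondrial genome and ribosomal protein transcripts, edgeR 4.0.16 (quasi-likelihood) and DESeq2 1.42.0 on recovered reads, the 2 groups alone, a replicate block, and leaving out each library. On recovered reads edgeR called 3564 genes in R2 minus control, or 27.6%, beside 3667 by limma.

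Positions came from RefSeq GRCh38.p14 for 12211 rows, 11418 by symbol and 793 by a synonym that no other gene has. ST5 and ARNTL were matched as DENND2B and BMAL1. Promoter windows were searched on both strands, and 1 promoter sequence and 1 partner gene are not reported here.

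Values by library are given in each role group for the gene with the highest mean and the one with the most negative R1 minus control difference, for genes called in R2 minus control with a ratio of at least 1.5 in either direction, for the first and last gene, and for genes that share a divergent start region. Of other genes, up to 2 called partners per list with the smallest p, up to 3 genes next to each end of the stretch and the 5 highest within it could be named. TMEM80, SERGEF, BTBD10 and TSSC4 are given with no statement of a role beyond their class.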

Additional observations from a re-analysis of the deposited data

Results flagged for a closer look

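Of 87 groups of 4 libraries that were checked (28 genes and the median of the 56 genes, in 3 groups), 5 held a library that stood far from the other 3, with a gap to its nearest neighbour above Dixon's 95% critical value. Chance alone flags about 5% of such groups.

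STIM1 was at 25.9 in control replicate 1, with the other control libraries at 31.1 to 31.7. IPO7 was at 675 in R2 replicate 4, above 552 to 573 in the other R2 libraries. MICAL2 was at 274 in R2 replicate 2, below 469 to 486 in the others. The R2 minus control calls of these 3 genes held when that library was left out. AMPD3 was at 8.95 in R1 replicate 2, above 1.86 to 2.45 in the other R1 libraries and within the control range of 3.85 to 9.59. The median of the 56 genes was at 0.0429 in control replicate 3, above -0.008 to 5.95e-06 in the other control libraries, on the log2 scale set to the control mean.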

How the results depend on the processing

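The count of the 56 genes that passed in R2 minus control was 14, ran from 13 to 16 over the 9 alternatives that kept all libraries of both groups, and ran from 9 to 17 when single libraries were left out. It was 9 without control replicate 3 and 9 without R2 replicate 1. The share of all listed genes with single libraries left out is not given here, so these counts are not read as particular to the 56. SIRT3 lost its call without any 1 of the 4 control libraries or R2 replicates 1 or 2 (adjusted p 0.0602 to 0.0978). FANCF lost it without control replicates 1, 2 or 3 or R2 replicates 1, 3 or 4 (0.054 to 0.111), and had no value under the filter on mean values. RCN1 lost it without control replicates 3 or 4 or R2 replicates 1 or 2 (0.0738 to 0.116). LIN7C lost it without control replicates 3 or 4, R1 replicates 1 or 4 or R2 replicates 1, 2 or 4 (0.0549 to 0.145), with edgeR (0.0512) and with the 2 groups alone (0.0559). NAV2 lost it without control replicates 1, 2 or 3, R1 replicates 1 or 4 or R2 replicates 1 or 2 (0.0501 to 0.121), with rescaling (0.0607) and with the replicate block (0.0719). The cause was not tested. The other 9 calls held in every alternative, and no difference that was called changed sign.

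Over all alternatives, 39 to 44 of the 56 genes passed the threshold on the low side in R1 minus control and 42 to 46 in R1 minus R2. In the main fit 21.4% and 22.8% of all listed genes did, and for the 56 these counts describe the choice and are no test. Partner calls ran from 66 to 86 of 186 in R1 minus control and from 37 to 58 in R2 minus control. In the main fit 43.8% and 28.4% of all listed genes passed in these. The median R2 minus control difference of the 56 genes ran from 0.08 to 0.17, and the median R1 minus control difference of the 93 other genes of the stretch ran from -0.67 to -0.53.

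Same-numbered libraries did not deviate together in every comparison (12 pairs, r from -0.31 to 0.39, 5 over 0.1). The numbers were therefore not taken to pair samples. Between R1 and R2 the same-numbered pairs had r of 0.114, 0.108, 0.074 and 0.133, and whether they share a batch was not tested. With the replicate block 14 of the 56 genes passed in R2 minus control, beside 28.9% of all listed genes. On the low side 43 passed in R1 minus control (21.9% of all genes) and 45 in R1 minus R2 (23.4%), which describes the choice. Of the 186 partners 79 passed in R1 minus control (44.8% of all genes) and 49 in R2 minus control (28.9%).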

Other observations

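Beside the 4 pairs among the 56 genes, 8 of the 56 start within 1000 bases of a listed gene of the stretch that the rule does not name, on the opposite strand, and the R1 minus control differences of such neighbours ranged from nearly equal to far apart. METTL15 was at -0.91 and its neighbour KIF18A, a mitotic kinesin, at -0.94. ILK was at -0.66 and RRP8, a nucleolar methyltransferase, at -0.62. NUP98 was at -0.69 and PGAP2, a GPI anchor remodelling protein, at -0.79. SIRT3 was at -0.77 and the proteasome subunit PSMD13 at -0.45.

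ARFIP2 was at -0.55 and TIMM10B, a chaperone of mitochondrial import, at -1.36. ST5 was at -0.81 and AKIP1, a binder of protein kinase A, at -0.10. ZBED5 was at -1.33 and its antisense neighbour ZBED5-AS1 at -0.25. SBF2 was at -0.89 and ADM, which encodes the hypoxia-inducible peptide adrenomedullin, at -4.08. ADM was also at -3.0 in R2 minus control, where SBF2 was at 0.28. These differences in R1 are values of the contrast that chose the stretch and are given without a test, and the neighbours were chosen by position after their values were seen.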
